A study of Mus musculus with 7 samples.

Results

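The Hox clusters and the genes of hindlimb identity were followed in growth plate cartilage by taking every gene symbol made of Hox, a cluster letter from a to d and a number, together with Pitx1, Tbx2, Tbx3, Tbx4, Tbx5, Shox2, Meis1 and Meis2. These were 47 of the 43346 genes in the deposited tables: 39 Hox genes (11 Hoxa, 10 Hoxb, 9 Hoxc and 9 Hoxd) and 8 limb identity and cofactor genes. The samples were 7 growth plate libraries, 1 from each of 7 male F1 mice from a cross of C57BL/6J (B6) and CAST/EiJ (CAST), taken at 21 d of age. They form a single untreated group, numbered as mice 1 to 5, 7 and 8. Growth plates from both ends of the tibia entered each library, so only hindlimb tissue was measured, and total RNA depleted of ribosomal RNA was sequenced and assigned to the B6 or the CAST copy of each gene. The study sought candidate genes for a femur length locus on chromosome 9, in part as genes whose 2 alleles differ in this tissue. None of the members lies on that chromosome. An F1 mouse compares the 2 alleles within the same cells.

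Hox genes encode homeodomain transcription factors that lie in 4 clusters, and the order of the genes along a cluster follows the order in which they act along the body and limb axes. In the limb, paralog groups 9 and 10 are known for the upper segment, group 11 for the middle segment, which holds the tibia, and group 13 for the foot. Pitx1 and Tbx4 are transcription factors of the hindlimb, Tbx5 is their counterpart in the forelimb, and Shox2 acts in the cartilage of the proximal limb. Tbx2 and Tbx3 are related T-box repressors, and Meis1 and Meis2 are TALE homeodomain proteins that bind DNA with Hox proteins.

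Library totals ran from 14098019 to 37849667 counts, with a median of 27603769. All 10 chondrocyte markers examined were detected, with a summed level of 8451 to 12786 counts per kb of exon per 1000000 library counts, the unit of level used throughout. Markers of other tissues were present in every library: 6 of 6 bone genes summed to 8309.95 to 12320.4, 9 of 9 erythroid and marrow genes to 5814 to 13453, 6 of 6 muscle genes to 1393 to 3253, 4 of 4 osteoclast genes to 1131 to 1799.9, 6 of 6 fibroblast and tendon genes to 412 to 568 and 4 of 4 endothelial genes to 28.5 to 43.4. In such bulk tissue, fewer cells of a type and less RNA per cell cannot be told apart. Mitochondrial counts were 99.98% to 99.99% B6 and X-linked counts 90.2% to 91.6% B6, so the strain of an autosomal allele cannot be told apart from the parent it came from.

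Promoter sequences are given for the members on which the results turn: Hoxa10 and Hoxd8, members whose alleles differed in every mouse without near-ties, with whole totals and no exon shared with another gene, and Hoxa13 and Hoxd13, the posterior-most paralogs, which differed in level. Each is the 250 bases before a transcription start in RefSeq (GRCm38.p6), written on the strand of the gene, with capitals marking TATAAA or CCAAT on either strand (overlapping matches run together).
Hoxa10, first start, chr6:52240855-52241104, minus strand: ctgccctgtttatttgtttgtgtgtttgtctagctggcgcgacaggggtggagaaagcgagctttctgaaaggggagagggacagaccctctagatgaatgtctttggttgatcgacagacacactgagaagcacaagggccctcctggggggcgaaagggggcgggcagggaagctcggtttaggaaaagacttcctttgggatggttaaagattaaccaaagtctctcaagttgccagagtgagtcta
Hoxa10, internal start, chr6:52234940-52235189, minus strand: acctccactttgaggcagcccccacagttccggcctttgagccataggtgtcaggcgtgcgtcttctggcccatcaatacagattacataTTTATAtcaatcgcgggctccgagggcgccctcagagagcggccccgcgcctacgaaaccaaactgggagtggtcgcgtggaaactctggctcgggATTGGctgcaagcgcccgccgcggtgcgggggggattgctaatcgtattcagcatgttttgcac
Hoxd8, chr2:74704365-74704614, plus strand: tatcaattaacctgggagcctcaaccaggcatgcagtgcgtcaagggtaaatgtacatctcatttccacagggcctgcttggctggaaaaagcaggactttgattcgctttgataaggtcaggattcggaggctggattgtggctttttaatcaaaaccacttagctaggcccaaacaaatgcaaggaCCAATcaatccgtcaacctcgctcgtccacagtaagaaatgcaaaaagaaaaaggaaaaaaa
Hoxa13, chr6:52260881-52261130, minus strand: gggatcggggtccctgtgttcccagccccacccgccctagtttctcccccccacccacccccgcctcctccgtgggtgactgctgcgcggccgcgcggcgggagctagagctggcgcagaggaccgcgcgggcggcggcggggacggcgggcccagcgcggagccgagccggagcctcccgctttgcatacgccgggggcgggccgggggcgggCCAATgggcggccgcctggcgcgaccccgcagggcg
Hoxd13, chr2:74667975-74668224, plus strand: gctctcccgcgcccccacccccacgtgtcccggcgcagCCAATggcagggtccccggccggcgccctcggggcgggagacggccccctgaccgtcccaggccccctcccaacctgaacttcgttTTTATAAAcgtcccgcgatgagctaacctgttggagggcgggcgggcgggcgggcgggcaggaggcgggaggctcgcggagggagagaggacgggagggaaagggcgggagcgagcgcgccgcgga

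RefSeq listed 28 such promoters for 26 of the 47 members. They held a median of 12 CpG, against 6 over all 32851 promoters of the same length, and a median GC content of 58.2% against 52.4%. CCAAT lay in 16 of the 28 and in 33.8% of all promoters, and TATAAA in 7 of the 28 and in 12.4% of all. TGATTNAT, a form of the joint Hox and Pbx site, lay in 2 of the 28 and in 2.82% of all. The first Hoxa10 window held 7 CpG and none of the 3 motifs, while its internal start had 20 CpG with a CCAAT and a TATAAA. Hoxd8 had 6 CpG and 1 CCAAT. Hoxa13 had 35 CpG with 80.0% GC and Hoxd13 31 CpG with 74.4% GC, both well above the median of all promoters.

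All 4 clusters gave counts, and the Hoxa and Hoxc clusters gave most of them. Summed over its genes, the level of Hoxa was 13.1 ± 2.28 (SD, n = 7), of Hoxc 10.2 ± 1.58, of Hoxd 4.05 ± 0.57 and of Hoxb 1.73 ± 0.40. As shares of the Hox level, Hoxa held 45.0% ± 2.07, Hoxc 35.03% ± 2.33, Hoxd 14.03% ± 1.70 and Hoxb 5.94% ± 0.88. The ranges of the 4 shares did not overlap across mice, Hoxa lying between 42.5% and 47.2% and Hoxc between 32.6% and 39.0%. Mouse 5 had the lowest summed level of Hoxa (9.92), Hoxb (1.18) and Hoxd (3.14), and mouse 3 the highest of Hoxa (16.7), Hoxc (11.97) and Hoxd (4.86). Mouse 5 also had the highest summed level of the marrow genes (13453), whose part in its low Hox levels was not tested.

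Along the clusters, the level was concentrated in paralog groups 9 to 11, which held 56.6% ± 2.20 of it. Groups 5 to 8 held 28.5% ± 1.06, groups 1 to 4 held 12.3% ± 1.42, and groups 12 and 13 held 2.66% ± 0.81. Just 4 genes, Hoxc10, Hoxa11, Hoxa10 and Hoxd8, made up 48.1% ± 2.41 of the Hox level. With the length of the longest transcript in place of all exons, Hoxa9 (2.46) took the fourth place from Hoxd8 (2.26), and the 4 highest held 45.6%.

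**Figure D1:**
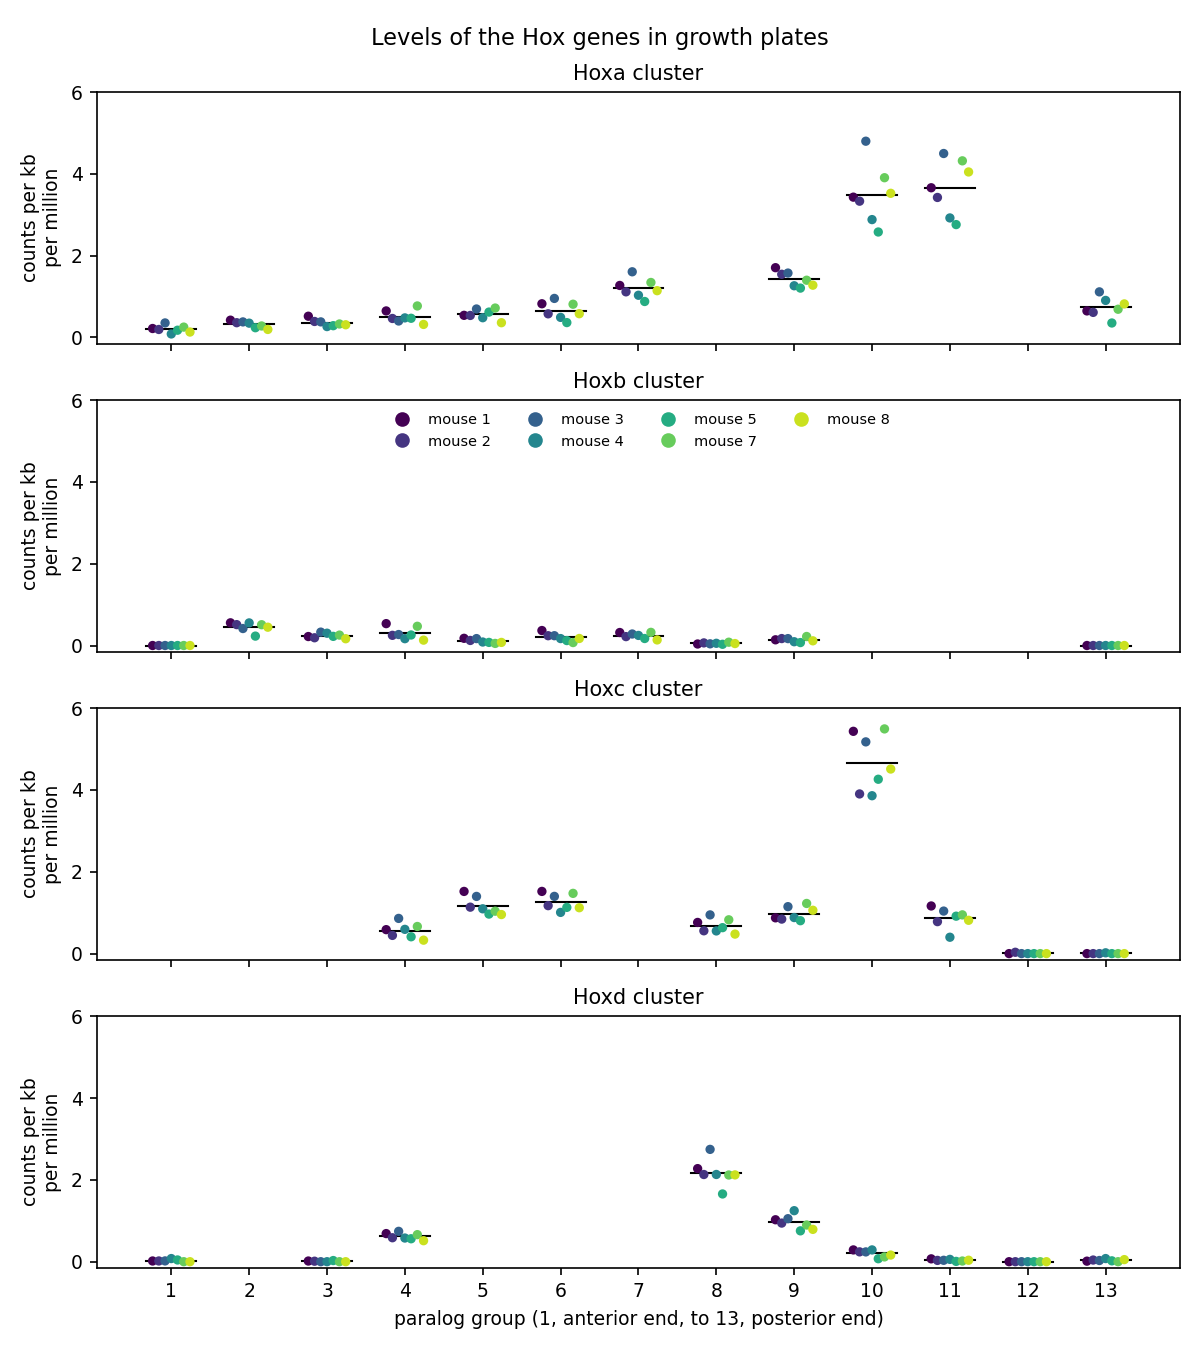
Level of each Hox gene (counts per kb of exon per 1000000 counts) in each of 7 mice, by cluster and by paralog group from 1 to 13. Points are mice and bars are means; Hoxc10, Hoxa11 and Hoxa10 stand highest, Hoxd8 is the highest of Hoxd, and every Hoxb gene has a mean below 0.5.

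Hoxc10, a group 10 gene of the hindlimb, had the highest Hox level, at 3.86 in the lowest mouse, 4.51 at the median and 5.49 in the highest. Hoxa11, which patterns the middle limb segment, had 2.76, 3.66 and 4.50, and shares 34.98% of its exon bases with the antisense transcript Hoxa11os (175 counts per mouse). Hoxa10 had 2.58, 3.43 and 4.80. Hoxd8, highest of its cluster, had 1.66, 2.13 and 2.75. The first 3 genes overlapped one another over the mice, and of them Hoxa10 alone reached down into the range of Hoxd8. Hoxb2, highest of the sparse Hoxb cluster and known for its role in the hindbrain, had 0.230, 0.508 and 0.555, with mouse 5 apart at the low end.

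Among the rest, Hoxa9 (mean 1.42), Hoxc6 (1.26), Hoxa7 (1.20) and Hoxc5 (1.16) came next, and 8 of the 47 members lay above 1.41, the median of the tested genes. Hoxb1, Hoxb13 and Hoxd12 had 0 counts in all 7 mice, which allows up to 0.0163 CPM (3 counts of the 184604612 in all libraries, counting error only). Hoxc12 and Hoxc13 had 1 count in 1 mouse each. Hoxd1 gave 0 to 3 counts and Hoxd13 0 to 4. These 7 genes were too sparse to test between alleles. Hoxd3 held more than 1 count in 3 mice and only a small fraction of a count in the other 4, and it shares 62.3% of its exon bases with neighbours including Hoxd4.

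Paralogs of the posterior groups were unequal between clusters. Compared within mice on the log2 scale (0.5 counts added), 12 pairs were tested with a two-sided exact sign-flip permutation test, whose smallest p with 7 mice is 0.0156. The Hoxa member exceeded its Hoxd paralog in 7 of 7 mice in groups 9, 10, 11 and 13 (each p = 0.0156 by the exact test, adjusted 0.0170 over the 12 pairs). The difference grew from 0.57 ± 0.25 (log2, SD, n = 7; 1.48-fold) for Hoxa9 over Hoxd9 (2.56-fold where the longest transcript set the length) to 4.14 ± 0.66 (17.6-fold) for Hoxa10 over Hoxd10 and 6.67 ± 0.89 (102-fold) for Hoxa11 over Hoxd11. At Hoxa13 over Hoxd13, genes of the foot, it was 4.33 ± 0.86 (20.05-fold). With 3.97 counts of Hoxd11 and 2.14 of Hoxd13 per mouse, the 2 largest folds of Hoxa over Hoxd rest on few Hoxd counts.

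Hoxc genes stood above Hoxd in the same way in groups 10 and 11, by 4.57 ± 0.74 (23.8-fold) and 4.57 ± 1.14 (23.7-fold), each in 7 of 7 mice (exact p = 0.0156, adjusted 0.0170). These folds too rest on few Hoxd counts, 9.57 of Hoxd10 and 3.97 of Hoxd11 per mouse. Hoxd10 shares 5.73% and Hoxd11 10.8% of exon bases with Gm28309. The order turned at group 8, where Hoxc8 was lower than Hoxd8 by a log2 difference of -1.69 ± 0.31 in 7 of 7 mice (3.22-fold; the same exact p). Hoxc9 and Hoxd9 did not differ beyond their spread (0.03 ± 0.34, exact permutation p = 0.859), with mean levels of 0.977 and 0.959. Their difference ran from -0.50 to 0.44 over the mice.

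The hindlimb pair was the more strongly read. Pitx1, which specifies hindlimb identity, had levels of 3.77, 4.91 and 6.25 (lowest, median and highest mouse). Tbx4, downstream of Pitx1 in hindlimb outgrowth, had 0.684, 1.01 and 1.395. Tbx5, its forelimb counterpart, had 0.0490, 0.142 and 0.153. No mouse of Tbx5 reached the lowest of Tbx4, and no mouse of Tbx4 reached the lowest of Pitx1. Tbx4 exceeded Tbx5 by 3.15 ± 0.83 on the log2 scale (8.90-fold, 7 of 7 mice, exact sign-flip p = 0.0156, adjusted 0.0170), and lay below Pitx1 by a log2 difference of -2.29 ± 0.27 (4.91-fold, with the same exact p). Tbx5 counts were few, 14.1 per mouse.

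Tbx2, a T-box repressor, was the highest of all members at 8.46, 8.98 and 10.9, and Tbx3 lay far below at 0.316, 0.375 and 0.651. Tbx2 exceeded Tbx3 by 4.42 ± 0.35 (21.5-fold) in 7 of 7 mice (exact p = 0.0156, adjusted 0.0170). Mouse 3 was highest for both.

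Shox2, which acts in proximal cartilage, had 3.96, 4.72 and 6.19, overlapping Pitx1 and Hoxc10. Meis1 had 0.304, 0.415 and 0.616, and Meis2 0.0492, 0.0666 and 0.105. Meis1 exceeded Meis2 by 2.44 ± 0.27 (5.44-fold, or 3.46-fold by longest transcript) in 7 of 7 mice (exact p = 0.0156, adjusted 0.0170). Every mouse of Meis1 was above every mouse of Meis2.

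**Figure D2:**
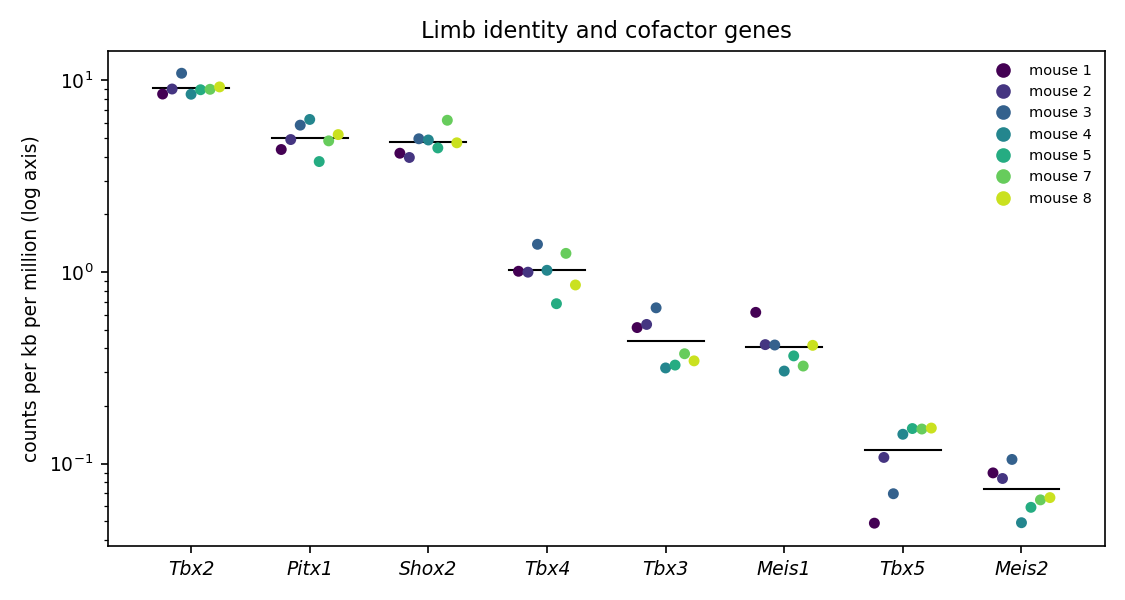
Level of the 8 limb identity and cofactor genes (counts per kb of exon per 1000000 counts, log axis) in each of 7 mice, with bars at the means. Tbx2 (9.14), Pitx1 (5.02) and Shox2 (4.76) are highest, Tbx4 (1.03) lies above Tbx5 (0.118), and Meis1 (0.408) above Meis2 (0.0741).

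Levels of the better-read members varied between mice by a little more than those of other genes: the coefficient of variation of those reaching 10 counts in each library was 8.98% to 32.9%, median 20.6%, against a median of 15.1% over 15010 such genes, a description that was not tested. The genes were not matched for counts, and these members reached down to a mean of 20.7 counts per mouse (Hoxa4).

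Between the alleles, members differed about as often as genes at large. Counts of CAST and B6 were compared with edgeR's likelihood-ratio test, the test the study used, at an FDR below 0.20. The FDR was adjusted here over all genes with counts in every mouse, which need not be the set over which the study adjusted its own. Of the 40 members that could be tested, 14 were called, against 32.6% of the 21805 genes tested. CAST was higher in 3 of the 40 (7.5%), against 15.4% of tested genes, and B6 in 11 of the 40 (27.5%), against 17.2%. The tested genes include X-linked and mitochondrial genes, which read nearly all as B6 in these males, while every member is autosomal. A fit of autosomal genes only called 6313 genes in place of 7111, and again 14 members. Shares by direction over autosomal genes alone are not given here. Where each library held 10 counts or more, 10 of 27 members were called, against 37.1%. The median size of the difference was 0.48 on the log2 scale over the members and 0.22 over all tested genes, and its median with sign -0.06 against 0.01. These sets were not matched for counts, and only 8 of the 47 members lay above the median level of tested genes. Alleles were equal in every mouse for 1826 of the 21805 tested genes and, among the members, for Hoxa2. The gap between the medians was not tested. The quasi-likelihood test, which allows for error in the spread, called 12 of the 14, dropping Hoxb4 and Hoxb7. These unpaired tests set the allele difference against the spread between mice within each allele. They do not use the spread of the difference within mice.

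By cluster the calls were 5 of 8 tested Hoxb genes, 3 of 11 Hoxa, 2 of 7 Hoxc, 1 of 6 Hoxd and 3 of the 8 limb identity and cofactor genes, beside 32.6% of all tested genes. The Hoxb count depended on the fit: DESeq2 called 2 of the 8 (Hoxb2 and Hoxb3), the quasi-likelihood test 3, the fit without rounding 4, without Hoxb8, and the fits that left out mouse 2, 3 or 5 called 3. Across the mice, CAST counts were 27.8% ± 6.35 of Hoxb counts, 45.1% ± 2.44 of Hoxa, 52.3% ± 3.88 of Hoxc and 58.6% ± 5.29 of Hoxd (SD, n = 7). Hoxb was at 39.6% in its highest mouse and Hoxd at 52.4% in its lowest. These shares are sums over genes that moved both ways, so a few abundant genes weigh most.

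**Figure D3:**
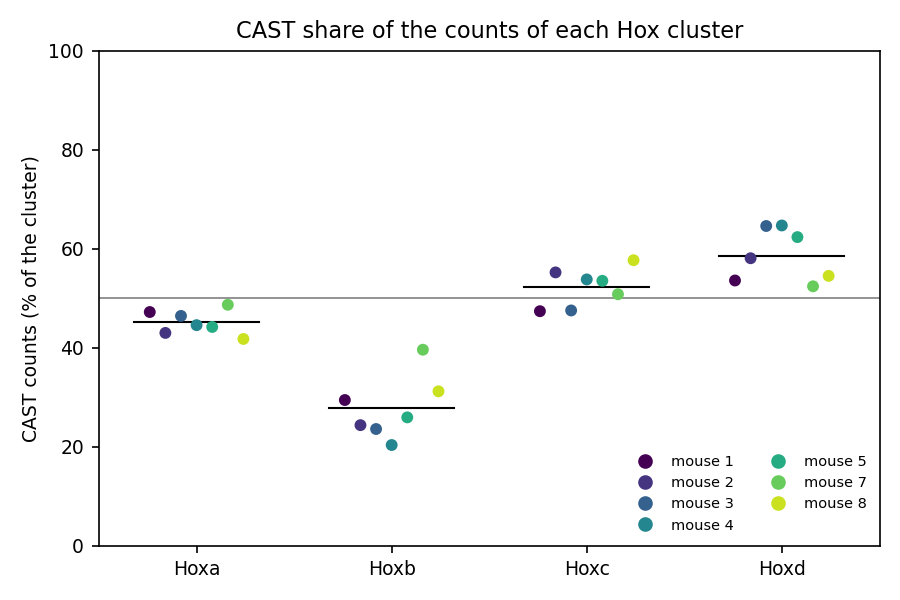
CAST counts as a percentage of all counts of each Hox cluster, for each of 7 mice, with bars at the means and a line at 50%. Hoxb (20.3% to 39.6%) lies below 50% in all mice and Hoxd (52.4% to 64.7%) above it in all mice.

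Of all members, 6 had the same allele higher in 7 of 7 mice, against 22.6% of tested genes, X-linked and mitochondrial genes included. For Hoxb8, Hoxd10 and Tbx5, however, some of those differences were near-ties. Hoxb8 had both alleles within 5% of its total in 5 mice and Hoxd10 in 6, and Tbx5 in 2. Hoxb2, Hoxa10 and Hoxd8 had no near-tie.

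Hoxb2 had the largest difference. Its CAST counts were 1.76 in the lowest mouse, 4.76 at the median and 8.11 in the highest, while its B6 counts were 22.7, 35.2 and 51.3. The alleles did not overlap: the highest CAST value lay under the lowest B6 value, in a gene on chromosome 11 (96350525 to 96354012, mm10). The CAST minus B6 log2 difference was -2.89 (mean within mice -2.84 ± 0.80, SD, n = 7), with edgeR FDR = 2.21e-17 and quasi-likelihood FDR = 2.28e-07, both unpaired. With the alleles of each mouse kept as a block, the quasi-likelihood FDR was 0.000293. The antisense transcript Hoxb3os, which covers 27.3% of its exon bases, had 2.90 CAST and 4.13 B6 counts per mouse.

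Hoxb3, its neighbour, was also lower on CAST. CAST gave 0.0383, 4.33 and 10.7 counts and B6 4.65, 22.6 and 35.1. B6 was higher in 6 of 7 mice, mouse 7 being the exception, with 10.6 against 4.65. The log2 difference was -1.74 (edgeR FDR = 0.000531), with 52.9% of its exon bases shared with Hoxb3os. With the mouse as a block, the quasi-likelihood FDR of Hoxb3 was 0.0917. Hoxb4 (-0.79, edgeR FDR = 0.177) and Hoxb7 (-0.76, edgeR FDR = 0.168) passed the threshold narrowly on 19.9 and 9.57 counts per mouse and had near-ties in 3 mice each.

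Hoxb8 was called as higher on CAST by 1.396 (edgeR FDR = 0.0853) from 3.29 counts per mouse. In 5 of the 7 mice the authors' counts were close to 1.51 for CAST and 1.49 for B6, which round to different whole numbers. Without rounding, the log2 difference was 0.65 and the edgeR FDR 0.527, so the call rests on the rounding.

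**Figure D4:**
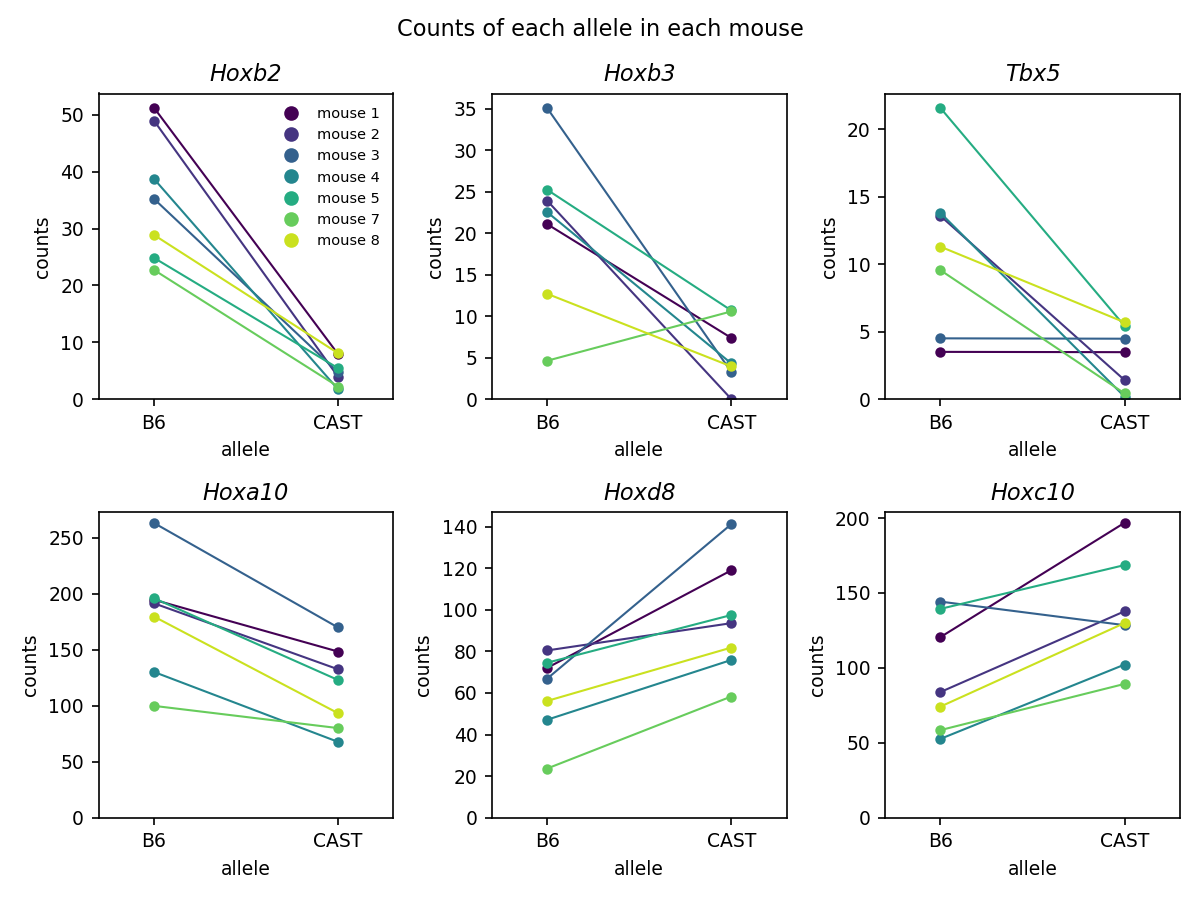
Counts assigned to the B6 and the CAST allele of 6 called members, with 1 line per mouse joining the alleles of that mouse. Every line falls from B6 to CAST for Hoxb2 and Hoxa10 and rises for Hoxd8; 1 mouse goes against the others for Hoxb3 and for Hoxc10, and 2 lines are nearly level for Tbx5.

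Hoxa10 had the most counts of the members called as higher on B6. CAST gave 67.8, 123 and 169.9 counts (lowest, median, highest mouse) and B6 99.9, 191 and 263, so the ranges overlapped across mice while B6 was higher within every mouse. The log2 difference was -0.61 (within mice -0.63 ± 0.24; edgeR FDR = 0.000958, quasi-likelihood FDR = 0.00514). Hoxa4, an anterior gene of the same cluster, differed by -1.13 (edgeR FDR = 0.0166), with B6 higher in 6 mice and equal alleles in mouse 7, on 20.7 counts per mouse. Hoxa7 differed by -0.55 (edgeR FDR = 0.0440), with CAST at 24.6, 31.8 and 60.3 and B6 at 29.3, 46.7 and 79.9, and only mouse 5 went the other way. Hoxa4 shares 16.0% and Hoxa7 20.4% of exon bases with antisense transcripts. Hoxa11 had 80.1, 114 and 149.97 CAST and 59.1, 116 and 138 B6 counts and did not pass (0.14, edgeR FDR = 0.658).

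Hoxd8 went the other way. CAST gave 58.3, 93.6 and 141 counts and B6 23.7, 66.9 and 80.4, with CAST higher in 7 of 7 mice. The log2 difference was 0.71 (within mice 0.70 ± 0.37; edgeR FDR = 0.000134, quasi-likelihood FDR = 0.00175). Other Hoxd genes did not pass, from 0.18 (Hoxd11) to 0.96 (Hoxd3, on 1.15 counts per mouse). 

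Hoxc10 was higher on CAST in 6 of 7 mice: 89.3, 129.9 and 197 CAST counts against 52.7, 83.9 and 144 B6 counts. Mouse 3, with 129 against 144, was the exception. The log2 difference was 0.55 (edgeR FDR = 0.000896), and 8.70% of its exon bases are shared with Hoxc5. Hoxc8 was lower on CAST by a log2 difference of -0.84 (edgeR FDR = 0.0292), though mice 5 and 8 had more CAST counts. Hoxc4 missed the threshold (0.43, edgeR FDR = 0.302) and passed when the 2 alleles of a mouse were kept as a replicate block (FDR = 0.0360 by the likelihood-ratio and 0.0482 by the quasi-likelihood test).

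Tbx5 was lower on CAST, with 0.201, 3.49 and 5.70 CAST counts against 3.51, 11.3 and 21.6 B6 counts. Mice 1 and 3 were near-ties (3.49 against 3.51 and 4.49 against 4.51). The log2 difference was -2.12 (edgeR FDR = 0.000298, quasi-likelihood FDR = 0.00623), on the low counts given above. With the mouse as a block, the quasi-likelihood FDR of Tbx5 was 0.0789. Its hindlimb counterparts did not pass. Tbx4 had 23.6, 38.5 and 60.3 CAST and 31.0, 47.3 and 70.7 B6 counts (-0.20, edgeR FDR = 0.626), and Pitx1 80.8, 191 and 225 CAST and 100.2, 165 and 224 B6 counts (0.13, edgeR FDR = 0.733).

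Meis1 had 17.5, 53.0 and 67.1 CAST and 20.004, 63.3 and 131 B6 counts. B6 was higher in 6 of 7 mice, with a near-tie in mouse 3, and the log2 difference was -0.57 (edgeR FDR = 0.0286). Meis2 differed by -0.74 (edgeR FDR = 0.116), with 9.77 CAST and 14.5 B6 counts at the medians and mice 1 and 5 reversed. Shox2 (-0.18, edgeR FDR = 0.435), Tbx2 (-0.04, edgeR FDR = 0.902) and Tbx3 (0.14, edgeR FDR = 0.860) were not called. Their alleles overlapped in counts across the mice.

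**Figure D5:**
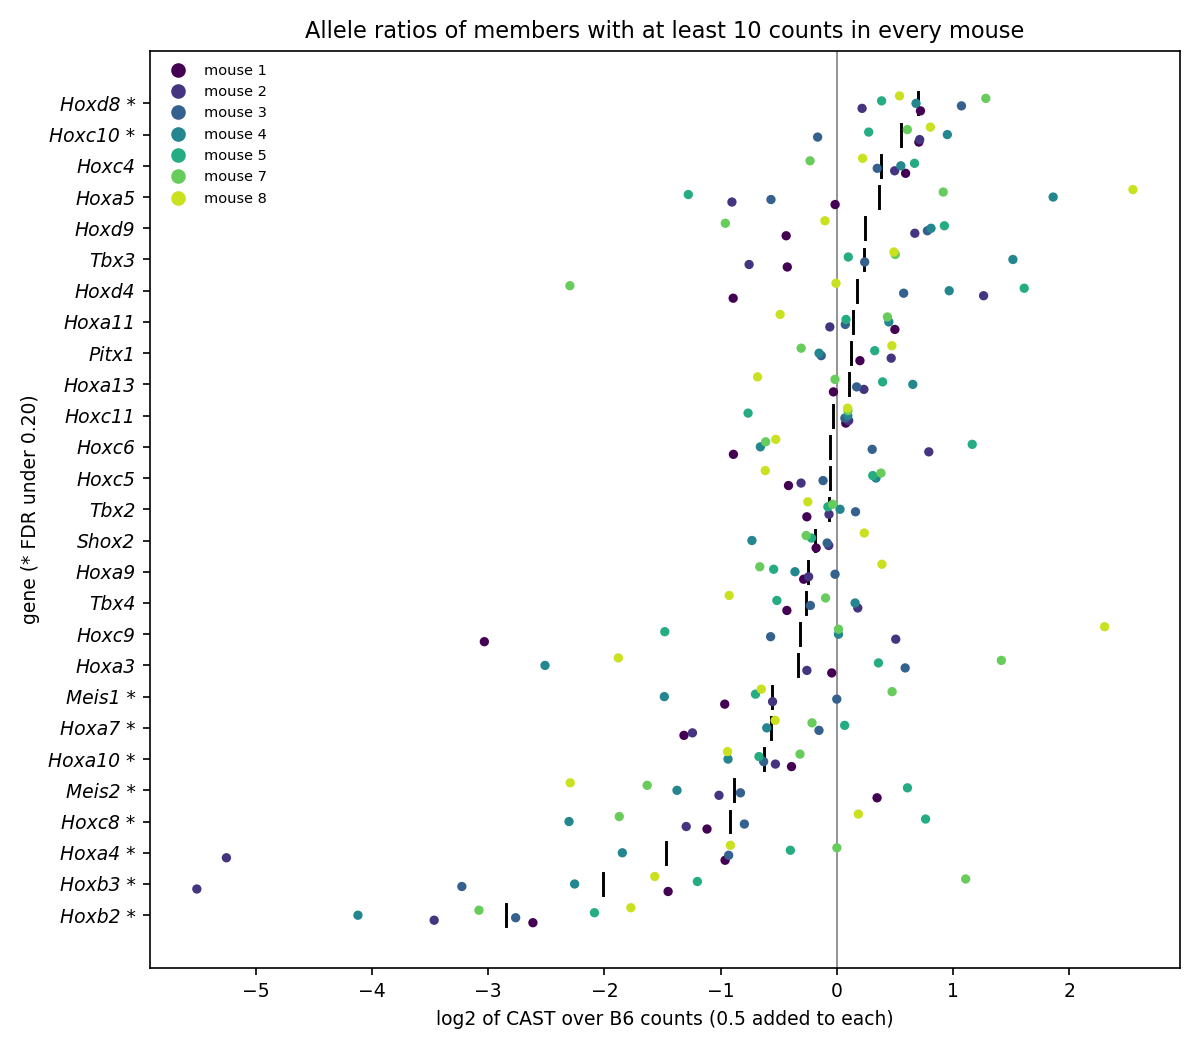
Log2 of CAST over B6 counts (0.5 added to each) for the members reaching 10 counts in each library, 1 point per mouse with bars at the means, ordered by mean; an asterisk marks an FDR below 0.20. Hoxb2 has the lowest mean, with all its mice below 0, and Hoxd8 has all its mice above 0.

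Hoxa2 could not show a difference: its alleles were equal within 1e-06 in all 7 mice, on 7.00 to 22.9 counts, as for a gene whose counts are split evenly. Counting Hoxa2, 26 of the 40 tested members were not called. Keeping the mouse as a block, the quasi-likelihood test called 13 of 40 members against 37.6% of tested genes, with Hoxc4 added and Hoxb7 (FDR = 0.243) and Meis2 (FDR = 0.217) lost; the blocked likelihood-ratio test called 16, adding Hoxc4 and Hoxa9 (FDR = 0.185). Called in every one of the 18 alternative fits that tested them were 9 members: Hoxa4, Hoxa10, Hoxb2, Hoxb3, Hoxc8, Hoxc10, Hoxd8, Meis1 and Tbx5. Those fits do not include the exact sign-flip test of the allele log2 ratios within mice, adjusted over all tested genes. By that test Hoxc8 missed the FDR threshold (exact sign-flip p = 0.0781, adjusted 0.210). The rest of these members passed it, with adjusted values from 0.0685 (Hoxb2, Hoxa10, Hoxd8 and Tbx5) to 0.148 (Meis1). The value 0.0685 is the smallest that any tested gene reached, so it does not rank these genes. Hoxb8 and Hoxd10 reached it too, mostly on near-ties.

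Genes that act with or upon Hox genes were read from lists of their own. With 32.6% of all tested genes called, the calls were 3 of 7 TALE cofactors (2 higher on CAST, 1 on B6), and of 23 other limb patterning factors, 7 (5 on CAST, 2 on B6). Irx3, a homeobox gene of the limb bud, was higher on CAST in 7 of 7 mice, with 92.9 ± 33.8 CAST and 43.8 ± 16.0 B6 counts (log2 difference 1.06, edgeR FDR = 6.31e-06); Sp8 was at 0. Of 22 Polycomb and trithorax regulators, which maintain silent and active Hox states, 6 were called. Cbx7 (-0.75, edgeR FDR = 5.21e-08) and Ring1 (-0.32, edgeR FDR = 0.0392), both Polycomb subunits, were higher on B6 in 7 of 7 mice, and Cbx2 (0.32, edgeR FDR = 0.0623) was higher on CAST in all 7. Kdm6a, a histone demethylase, was nearly all B6 (1.74 against 478 counts), and is X-linked, so male mice carry a single copy. Of 11 flanking genes and noncoding RNAs tested, 2 were called: Skap1, higher on CAST (1.15, edgeR FDR = 0.0177), and Hoxaas2, higher on B6 (-0.88, edgeR FDR = 0.109). The median log2 difference was -0.06 over the cofactors, 0.05 over the patterning factors, 0.03 over the Polycomb and trithorax regulators and 0.04 over the flanking genes, against 0.01 over all tested genes.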

How the data were processed

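Ribosome-depleted RNA of the growth plates was sequenced as 2 x 75 base reads. Per the study's methods, the authors aligned them with Bowtie (up to 3 mismatches) to a joint B6 and CAST transcriptome built on mm10, and estimated with EMASE the expected counts per gene and allele that they deposited; whether strand was used is not given in the sources used here. Gene models were GENCODE M21, in which 98.0% of the IDs matched, and 23 members had totals that were not whole (tolerance 1e-04) in at least 1 mouse. Expected counts were rounded for edgeR 4.0.16 (R 4.3.3, limma 3.58.1), tested between alleles unpaired at FDR below 0.20 over genes above 0 in every mouse; 1406 of the 21805 tested had a mean under 1. Alternatives were the quasi-likelihood test, DESeq2 1.42.0, other filters and scalings, unrounded counts, a replicate block and leaving out each mouse. Levels divide counts by merged exon length and library total. Named members are those called, the 8 limb genes and the highest of each cluster; Hoxc4 and Hoxa9 were named after their values were seen, as were near-ties. The alleles of 1 mouse come from the same animal, so they pair; deviations correlated by 0.184 on average within a mouse (lowest 0.0470) and at most 0.239 between mice. No 2 libraries agreed within sampling noise (chi-square per degree of freedom from 14.4 over 21 pairs). Tested on simulated data, both edgeR tests recovered nearly all changed genes, but the share of false calls exceeded the FDR threshold in both, more so for the likelihood-ratio test. The simulation changed only well-counted genes, far fewer than were called here, and by more than many called members differed. It also drew the alleles of a mouse independently, so neither result need hold for the members. Members and lists were chosen with earlier results of these data known.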

Additional observations from a re-analysis of the deposited data

Results flagged for a closer look

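Of 54 sets of 7 mice examined, 5 held a mouse whose gap to the nearest other, divided by the range, exceeded Dixon's 95% critical value, where chance gives about 1 in 20 sets (2.7). For Tbx2, mouse 3 had a log2 level of 3.44 (10.9) against 3.08 to 3.21 in the others. Mouse 5 had a log2 level of Hoxb2 of -2.12 against -1.27 to -0.85. In Hoxc11, mouse 4 had a log2 level of -1.32, on 17 counts, against -0.36 to 0.22. The log2 ratio of CAST to B6 counts of Hoxc11 was -0.76 in mouse 5 (25.8 against 44.2 counts) and 0.07 to 0.10 in the others. In those 6 mice its alleles were near-ties, at most 1.94 counts apart, so their narrow range need not measure an allele balance. The same ratio of Hoxa4 was -5.25 in mouse 2 (0.0877 against 21.9 counts), against -1.85 to 0 in the others.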

How the results depend on the processing

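Calls among the members numbered 11 to 14 when each mouse was left out in turn. The count of members with 1 allele higher in every mouse was 6 and ran from 6 to 10, reaching 10 without mouse 7. Leaving out a mouse eases this criterion, so the count could not fall below 6 there. The difference between Hoxc9 and Hoxd9 (0.03 in log2) ranged from -0.043 to 0.11 and turned without mouse 7 or mouse 8. The allele difference of Tbx3 ranged from -0.031 (without mouse 4) to 0.33. Among the cofactor, patterning, Polycomb and flanking genes, 18 were called, 28 with the replicate block in the likelihood-ratio test and 11 at an FDR below 0.05. The replicate block changed no call of a named member other than those given above. With longest-transcript lengths the median member level was 0.503 in place of 0.411 and the Hoxa share 48.0% in place of 45.0%; with Rn7s1, Rn7s2 and Rn7sk left out of the totals that median was 0.512. By longest transcript, levels moved by over 1.5 times for Hoxa3 (0.354 to 0.822), Hoxa9 (1.42 to 2.46), Hoxc6 (1.26 to 1.92) and Meis2 (0.0741 to 0.162). DESeq2 called 11 members, without Hoxb4, Hoxb7 and Hoxb8. A filter chosen after seeing the data, a count above 1e-06 in every mouse, tested 39 members and called 14. Hoxb4 was not called without mouse 1, 3 or 5 (FDR up to 0.464), Hoxb7 without 2, 3, 5 or 8 (up to 0.376), Meis2 without 2, 3, 7 or 8 (up to 0.335), Hoxb8 without 2 or 5 (up to 0.234) and Hoxa7 without 1 (0.209). Low counts limit the Hoxb, Hoxd and Tbx5 results. Total counts need not be the only limit, as the ratio of the alleles also swung at higher counts. The log2 ratio of CAST to B6 ran from -3.03 to 2.30 for Hoxc9 (60.7 counts per mouse). It ran from -2.30 to 0.76 for the called Hoxc8 (50.4), but only from -0.68 to 0.65 for Hoxa13 (46.0). Allele counts are expected values, and how much of each rests on sequence that differs between the strains was not tested.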
